A study of Danio rerio with 18 samples.

Results

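The change of the transcriptome between 36 and 48 hours post fertilisation (hpf) was measured in control zebrafish embryos, 3 arrays at 48 hpf against 3 arrays at 36 hpf. These 6 arrays were chosen by their titles, which call the embryos Wildtype AB and give the time, and they are 6 of the 18 arrays of a study of cardiac troponin T2 knockdown. The other 12 are 3 arrays of control embryos at 60 hpf and 9 arrays of morphants, embryos given a morpholino (an antisense oligonucleotide made synthetically) to block tnnt2, the gene of the cardiac troponin T that the heartbeat needs. Morphants at 48 and 36 hpf, 3 arrays each, served as a second reading of the same interval, not shown to be independent of the first.

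All embryos were of the AB wild-type strain and were kept in E3 medium at 28 °C. The titles call the controls wild type, whereas the treatment protocol has embryos injected at the one-cell stage with either a control or a tnnt2 morpholino, so the name control embryos is used. That protocol also gives 32 h where the titles give 36 hpf, and the titles' time is used. Each RNA came from pooled whole embryos. The protocol says that the groups held equal numbers of embryos from each pair of parents, but the labels do not say whether the 3 RNAs of a group came from separate clutches. The p-values therefore measure only the spread between these arrays. In whole embryos, a fall in a transcript through fewer cells of a type and a fall through less RNA per cell cannot be told apart.

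Across this interval the zebrafish embryo goes from late organ formation to the hatching period. Cells of the retina leave the division cycle in turn and begin to make their specialised proteins, neurons extend axons and form synapses, the trunk muscle fibres are already contracting and go on building sarcomeres, and cartilage condenses in the head. Cells that leave the cycle switch off the machinery that copies DNA, and the basic helix-loop-helix and Sox factors that hold neural progenitors in an immature state give way to factors of differentiated cells.

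Of 18 marker genes of cell types with a named probe set, 17 belong to cells of the embryo. The level of 14 of these lay above the median of all probe sets, among them mylpfa and ckma of muscle, elavl3 and elavl4 of neurons, krt4 of epidermis, col2a1a of cartilage and notochord, alas2 of red blood cells and myl7 of the heart. The lens crystallin cryaa lay at the 25.8th percentile, below the egg-coat gene zp3b at the 35.6th. Another lens crystallin gene, crybb1, was bright, at 8.51, 8.48 and 8.18 at 48 hpf against 8.75, 7.86 and 8.05 at 36 hpf, and did not pass the test described below (0.17 ± 0.17, limma adjusted p = 0.512). The level of tnnt2a lay at the 46.9th percentile and that of lcp1, a leukocyte actin-bundling protein, at the 45.2nd.

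One array stood apart in level and in likeness to its group. The deposited log2 values of control array 1 at 36 hpf had a median of 1.48, against 3.30 and 3.38 in the other 2 arrays at 36 hpf, while the arrays at 48 hpf had medians of 3.86, 3.86 and 3.72. The authors' standard errors were also wider there, with a median of 0.820 on array 1 at 36 hpf and from 0.290 to 0.391 on the other 5. After quantile normalisation, which gives every array the same distribution, the Spearman correlation of this array with its own group was 0.849 to 0.854, against 0.937 between the other 2. Its correlation with the arrays at 48 hpf was 0.772 to 0.783, where arrays 2 and 3 had 0.866 to 0.912. With the control arrays at 60 hpf its correlation was 0.821 to 0.871, about as high as with its own group. The cause was not tested. Many results below are therefore also given without this array. The size of a single difference can change without it where this is not said. Array 3 at 36 hpf differed in another measure, the log2 gap between control probe sets for the 2 ends of the actin transcript. The gap was 2.06 there, against 0.88 and 1.22 on arrays 1 and 2 at 36 hpf and 1.21 to 1.52 at 48 hpf. The same gap for gapdh was 0.77 on that array and 0.53 to 0.80 on the other 5. All arrays of one time may also have been handled together, so time and handling cannot be told apart.

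Levels are given on the log2 scale after quantile normalisation, and a difference of 1 on this scale is a doubling relative to the rest of the array. Differences were tested with limma across all 18 arrays, with the p adjusted over 11626 probe sets whose mean level reached 0.62, and an adjusted p under 0.05 is called past the threshold. All adjusted p in the text are from this limma test. The ± after a difference is the standard error of the same fit, unless SD is written. Its spread is pooled over all 18 arrays, not taken from the 6 arrays compared, and the p-values rest on it too. It can understate the spread of a gene whose control arrays at 36 hpf scatter. At 48 hpf, 2625 probe sets (22.6%) were past the threshold against 36 hpf, 1280 of them higher (11.0%) and 1345 lower (11.6%). The median size was a log2 difference of 1.05 among the higher and -1.06 among the lower probe sets, and 1423 exceeded a doubling or a halving. The 3 arrays at 48 hpf did not overlap with the 3 at 36 hpf for 2489 of the 2625, against 36.1% of all probe sets tested. Without array 1 at 36 hpf, 2034 passed (17.5%), 963 higher (8.28%) and 1071 lower (9.21%), and of the 2625 probe sets 1654 were still past the threshold and all had the same sign. Without array 1 at 48 hpf 1749 passed, and without array 2 at 48 hpf 1619. With the 6 arrays of the comparison normalised and fitted alone, 791 passed.

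The split between higher and lower depends on how the arrays are scaled. The arrays at 48 hpf were brighter as deposited, by 1.09 between the mean array medians, or 0.47 without array 1 at 36 hpf. The hybridisation spike-in probe sets differed by 0.49, or 0.36 without that array. With the values as deposited, 1580 probe sets were higher and 77 lower. With each array centred on its median, 759 were higher and 2036 lower. Relative to the median shift of all probe sets under each scaling (0.92 as deposited, -0.18 centred), the splits were 41 higher and 276 lower, and 1066 higher and 1110 lower. Every rise and fall given here is thus one relative to the other transcripts of the embryo. The counts of list members given below with the values as deposited or with centred arrays are likewise relative to that median shift.

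**Figure D1:**
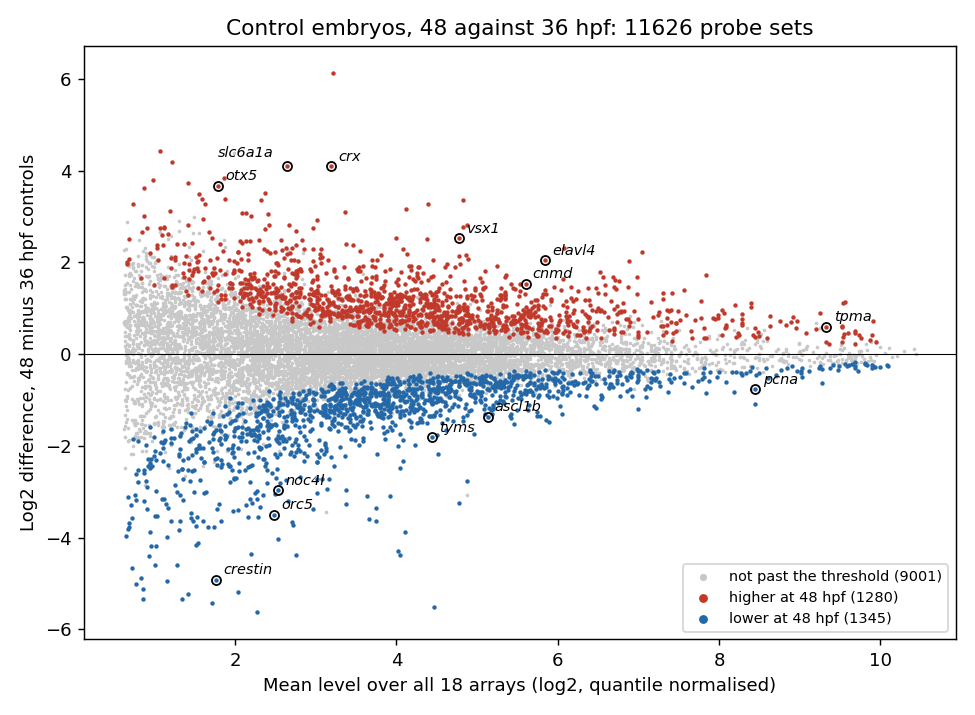
Log2 difference between control embryos at 48 and at 36 hpf (vertical axis) against the mean log2 level over all 18 arrays (horizontal axis) for 11626 probe sets. Red points are the 1280 higher and blue points the 1345 lower probe sets, grey points are not past the threshold, and circles mark named genes. The largest differences lie at low levels, where the values are least precise.

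Gene names could be given to 777 of the 2625 probe sets. With the brightest probe set for each gene, 2822 named genes were tested, of which 252 were higher (8.93%) and 399 lower (14.1%) at 48 hpf, with a median difference of -0.07 over all of them. These shares are the background for the gene lists below. When array 1 at 36 hpf was left out, 208 were higher (7.37%) and 308 lower (10.9%). Of the called genes named here, those for which nothing else is said remained past the threshold when any 1 of the 6 control arrays was left out.

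Some genes of the differentiating retina rose. The bipolar cell homeobox gene vsx1 had levels of 5.70, 6.03 and 6.03 at 48 hpf, against 3.46, 3.57 and 3.13 at 36 hpf. The groups lay far apart (n = 3 arrays each). The difference was 2.53 ± 0.19 (standard error from the fit to all arrays of the series), a 5.76-fold rise. The adjusted p of vsx1 was the smallest of any named gene that rose (5.8e-07). The gene of the cone-rod homeobox factor, crx, which switches on photoreceptor genes, had levels of 5.37, 5.46 and 5.71 at 48 hpf, against 2.12, 1.87 and 0.28 at 36 hpf. All arrays at 48 hpf were high and close together, whereas those at 36 hpf were dim and spread. The rise (4.09 ± 0.75, adjusted p = 0.001) therefore has no fixed size. The related homeobox gene otx5 rose by 3.67 ± 0.70 (adjusted p = 0.001), from a level too dim at 36 hpf to fix the size.

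The basic helix-loop-helix factor gene neurod1, active in differentiating neurons and photoreceptors, had levels of 5.43, 5.52 and 5.89 at 48 hpf, against 3.91, 4.26 and 4.24 at 36 hpf, a 2.78-fold rise (1.47 ± 0.18, adjusted p = 3.6e-05). The homeobox gene otx2b, needed in the early head and eye, rose 1.64-fold (0.71 ± 0.17, adjusted p = 0.007). Of the 19 tested genes of retinal and eye-field transcription factors, 5 rose and none fell, against 8.93% higher among all named genes. The median was 0.09, and most of the list did not pass the threshold. The fifth that rose, pax6b, was lost without array 1 at 36 hpf, where its difference of 0.95 became 0.47, or without array 2 or 3 at 48 hpf (largest adjusted p = 0.075). With the values as deposited 2 of the list rose.

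Of 18 genes of photoreceptors and phototransduction with a named probe set, only 10 were bright enough to be tested. Their median difference was 0.78, and 9 of the 10 differences were positive. Of these 10 genes 2 rose and none fell, against 8.93% higher among all named genes. Besides crx, the other was the blue cone opsin gene opn1sw2, with levels of 3.66, 4.2 and 3.2 at 48 hpf against 2.98, 2.27 and 2.19 at 36 hpf (1.21 ± 0.32, adjusted p = 0.012). Without array 2 at 48 hpf its adjusted p was 0.077. The ultraviolet cone opsin gene opn1sw1 had levels of 1.89, 1.81 and 1.58 at 48 hpf, against 2.04, 1.65 and -1.02 at 36 hpf, which overlapped (adjusted p = 0.387). Its level at 60 hpf was 4.75 ± 1.03 (SD, n = 3). The melanopsin gene opn4.1, a light receptor outside the rods and cones, rose by 2.53 ± 0.48 (adjusted p = 0.001), from a level at 36 hpf too dim to fix the size.

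**Figure D2:**
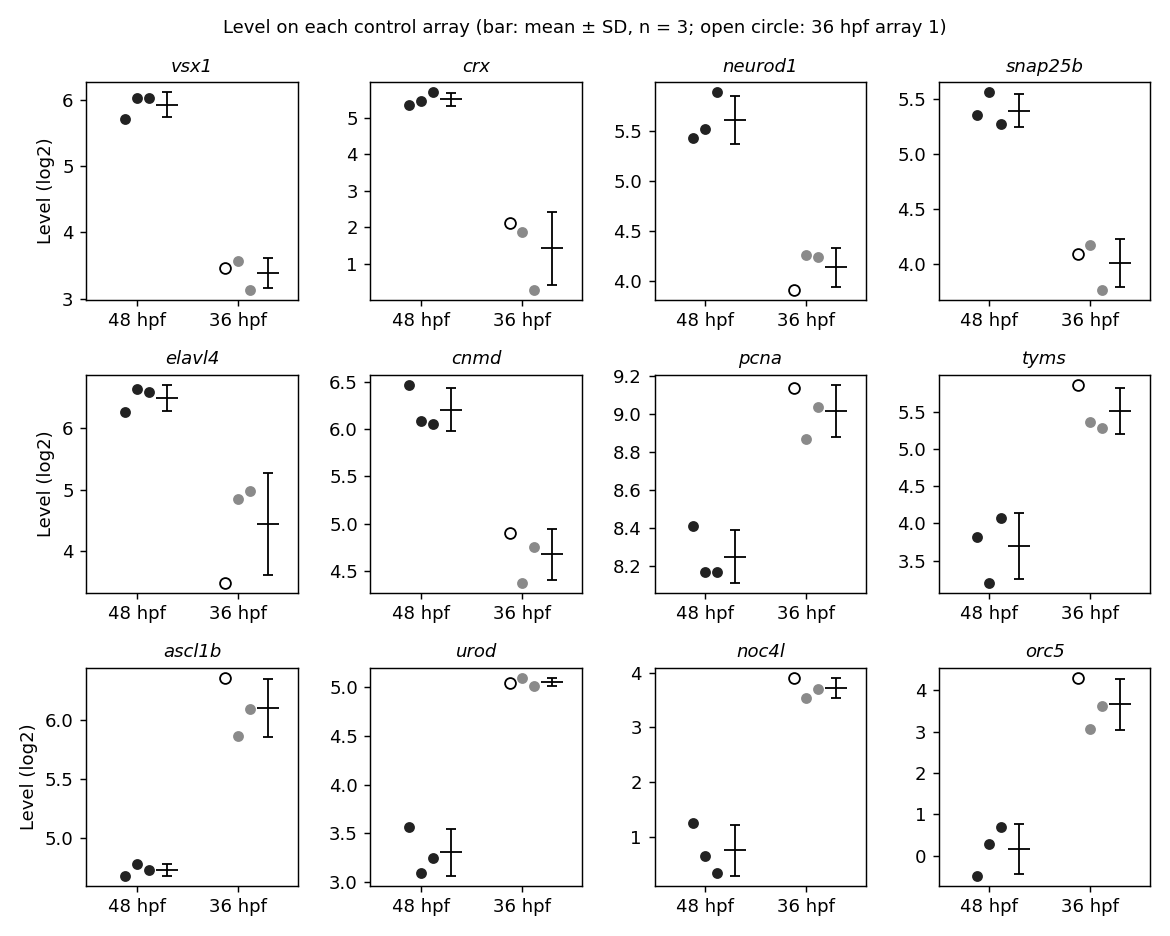
Log2 level of 12 genes on each control array at 48 hpf (left, black) and 36 hpf (right, grey), with the open circle for array 1 at 36 hpf and the bar for the mean ± SD (n = 3). In all 12 panels the groups do not overlap, with vsx1, crx, neurod1, snap25b, elavl4 and cnmd higher and the other 6 lower at 48 hpf; the axes do not start at 0.

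Many genes of neurons and their synapses rose. Of 29 tested genes of neurons and synapses, 13 rose and 2 fell, with a median difference of 0.77, and 23 of the 29 differences were positive. The share of 13 compares with 8.93% of all named genes. Without array 1 at 36 hpf, 9 rose and 1 fell, without array 3 at 48 hpf 8 rose, and 8 of the 13 rose whichever control array was left out. Centring the arrays in place of quantile normalising them gave 10 higher, and the values as deposited, relative to their median shift, gave 1.

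Genes for the proteins that fuse synaptic vesicles with the membrane were among them. The gene of the membrane protein Snap25, snap25b, had levels of 5.35, 5.56 and 5.27 at 48 hpf, against 4.09, 4.17 and 3.76 at 36 hpf. The 2.62-fold rise (1.39 ± 0.17, adjusted p = 4.1e-05) left the groups well apart. The vesicle protein gene vamp2 had levels of 6.27, 6.47 and 6.49 at 48 hpf, against 4.18, 5.37 and 5.27 at 36 hpf, with array 1 at 36 hpf the lowest. Its rise was 2.77-fold (1.47 ± 0.24, adjusted p = 0.00043), and 1.09 (adjusted p = 0.00026) without that array. The complexin gene cplx2b, whose product holds the fusion machinery in a ready state, rose by 2.28 ± 0.51 (adjusted p = 0.004), and by 1.53 (adjusted p = 0.015) without array 1 at 36 hpf.

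Genes of neuronal RNA binding, transport and membrane shape moved the same way. The RNA-binding protein gene elavl4, a marker of neurons, had levels of 6.26, 6.64 and 6.59 at 48 hpf, against 3.49, 4.86 and 4.98 at 36 hpf, a 4.15-fold rise (2.05 ± 0.38, adjusted p = 0.001) that was 1.58 (adjusted p = 0.004) without the low array 1. Its relative elavl3, expressed by nearly all neurons, had levels of 5.78, 5.88 and 6.33 at 48 hpf against 4.29, 4.76 and 5.72 at 36 hpf. That rise (1.07 ± 0.34, adjusted p = 0.031) was lost without any one of the control arrays other than array 3 at 36 hpf (largest adjusted p = 0.133, without array 1 at 36 hpf). The gene of the GABA transporter slc6a1a had levels of 3.41, 3.40 and 3.82 at 48 hpf, against -3.11, -0.42 and 1.89 at 36 hpf, too dim and too spread at 36 hpf to fix the size of the rise (4.09 ± 0.77, adjusted p = 0.001). It was 2.81 (adjusted p = 0.002) without array 1. The reticulon gene rtn1b, of the neuronal endoplasmic reticulum, rose 2.78-fold (1.47 ± 0.28, adjusted p = 0.001), and by 1.05 (adjusted p = 0.003) without that array. Among members named after their values were seen, the neuronal sodium pump gene atp1a3a rose by 1.44 (adjusted p = 7.9e-05) and the growth cone gene gap43 by 0.80 (adjusted p = 0.005).

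Of the pair that fell, the glycine receptor gene glra4a fell by 0.91 ± 0.27 (adjusted p = 0.022), a call lost without array 1 at 36 hpf or array 1 at 48 hpf (largest adjusted p = 0.112). The G protein subunit gene gng3 had probe sets that disagreed. The brightest fell by 0.36 ± 0.09 (adjusted p = 0.011), which was lost without array 3 at 48 hpf (adjusted p = 0.056), while another rose by 1.39 ± 0.23 (adjusted p = 0.00059). Its direction is therefore not settled by this array.

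Some neural progenitor genes fell. Of 32 tested genes of neural progenitors and proneural factors, 10 fell and 2 rose, with a median of -0.29, against 14.1% lower among all named genes. Without array 1 at 36 hpf, 7 fell and 1 rose, and without array 2 or without array 3 at 48 hpf 6 fell. Centred arrays gave 8 that fell, and the values as deposited 4. The proneural gene ascl1b, which commits progenitors to the neuronal fate, had levels of 4.68, 4.78 and 4.73 at 48 hpf, against 6.35, 5.86 and 6.09 at 36 hpf. The 3 arrays at 48 hpf were nearly equal, and the fall was 2.58-fold (-1.37 ± 0.21, adjusted p = 0.00034). The proneural gene neurog1 fell 2.05-fold (-1.04 ± 0.24, adjusted p = 0.005), and the hairy-related repressor gene her9 fell 2.17-fold (-1.12 ± 0.21, adjusted p = 0.001). The homeobox gene dbx1a, which marks progenitors of interneurons, fell 1.92-fold (-0.94 ± 0.17, adjusted p = 0.00099). The progenitor gene sox21a fell by 3.34 ± 0.70 (adjusted p = 0.003) to a level at 48 hpf too dim to fix the size. On the other side, the radial glia gene fabp7a, a brain fatty acid binding protein, rose 1.59-fold (0.67 ± 0.14, adjusted p = 0.003). The glial glutamate transporter gene slc1a3a fell 2.86-fold (-1.52 ± 0.29, adjusted p = 0.002).

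The machinery of DNA replication and cell division was lower as a group. Of 29 tested genes of the cell cycle and DNA replication, 21 fell and none rose, with a median of -0.77, and 28 of the 29 differences were negative. The share that fell is to be read against 14.1% of all named genes. Without array 1 at 36 hpf 18 fell, with a median of -0.63. Leaving out any one control array left between 14 and 20 that fell and none that rose, the 14 being without array 3 at 48 hpf. Centring the arrays gave 21 lower, and the values as deposited, relative to their median shift, gave 10 lower.

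The sliding clamp gene of DNA replication, pcna, had levels of 8.41, 8.17 and 8.17 at 48 hpf, against 9.14, 8.87 and 9.04 at 36 hpf. It remained one of the brighter transcripts, and its fall was 1.70-fold (-0.77 ± 0.12, adjusted p = 0.00033). The thymidylate synthase gene tyms, which makes the nucleotide that only DNA needs, had levels of 3.82, 3.2 and 4.07 at 48 hpf, against 5.86, 5.37 and 5.29 at 36 hpf, a 3.51-fold fall (-1.81 ± 0.28, adjusted p = 0.00033). The largest fall of the list was that of orc5, a subunit of the origin recognition complex, with levels of -0.49, 0.27 and 0.70 at 48 hpf against 4.3, 3.06 and 3.62 at 36 hpf (-3.50 ± 0.38, adjusted p = 1.5e-05). The arrays at 48 hpf were too dim to fix its size.

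Other parts of the replication machinery moved with them. The replicative helicase gene mcm2 fell 2.26-fold (-1.18 ± 0.19, adjusted p = 0.00037), and the single-strand binding protein gene rpa3 fell 2.47-fold (-1.30 ± 0.22, adjusted p = 0.00059). The origin recognition gene orc3 fell by 1.21 (adjusted p = 0.002). The cyclin gene ccne1, which drives entry into DNA synthesis, fell by 2.13 ± 0.46 (adjusted p = 0.004), with levels of 1.18, 0.62 and 1.39 at 48 hpf that were too dim to fix the size. Among members named after their values were seen, cdk1, the kinase that drives mitosis, fell by 0.83 (adjusted p = 0.00082), and the mitotic kinase gene aurkb fell by 1.11 (adjusted p = 0.002). The ribonucleotide reductase gene rrm1 fell by 0.38 (adjusted p = 0.002) on its brightest probe set, but 7 of its 12 probe sets had a difference of the opposite sign. Of the 8 members that did not pass, orc4 alone had a positive difference (0.52, adjusted p = 0.345).

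Outside that list, exo1, rad54l, anapc5, vrk1 and rbbp7 fell. The first 4 are named for the size or the p of their fall and the last as a member of the histone and chromatin list, and other genes of DNA repair were not counted. The exonuclease gene exo1, with levels of -0.27, -0.10 and -0.41 at 48 hpf against 3.59, 2.28 and 2.57 at 36 hpf, fell by 3.07 ± 0.62 (adjusted p = 0.002). The recombination gene rad54l fell by 3.84 ± 0.77 (adjusted p = 0.002), and anapc5, a subunit of the complex that releases cells from mitosis, fell by 3.64 ± 0.69 (adjusted p = 0.001). All 3 lay under 0.62 at 48 hpf, so that the size is not fixed. The chromatin kinase gene vrk1, needed in dividing cells, was bright enough at both times, with levels of 2.37, 2.19 and 2.06 at 48 hpf against 4.48, 3.86 and 4.34 at 36 hpf, a 4.04-fold fall (-2.02 ± 0.23, adjusted p = 2.3e-05). The chromatin protein gene rbbp7, a histone-binding subunit of several complexes, fell 1.88-fold (-0.91 ± 0.18, adjusted p = 0.002).

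Many proteasome genes fell by small amounts. Of 19 tested members, 10 fell and none rose, with a median of -0.40, against 14.1% lower among all named genes. Without array 1 at 36 hpf 8 fell, against 10.9% of all named genes. Without array 3 at 48 hpf 6 fell, and 1 did with the values as deposited or with the 6 control arrays normalised and fitted alone. The catalytic subunit gene psmb7 had levels of 7.40, 7.38 and 7.35 at 48 hpf, against 8.51, 7.84 and 7.90 at 36 hpf, a 1.63-fold fall (-0.71 ± 0.14, adjusted p = 0.002) that was -0.49 (adjusted p = 0.003) without the high array 1. The core subunit gene psmb3 had levels of 6.95, 6.89 and 6.84 at 48 hpf, against 7.46, 7.34 and 7.48 at 36 hpf. Its 1.45-fold fall (-0.53 ± 0.09, adjusted p = 0.00083) was small but larger than the spread. The core subunit gene psma6a fell 1.56-fold (-0.64 ± 0.14, adjusted p = 0.005), and the regulatory ATPase gene psmc6 fell 1.4-fold (-0.49 ± 0.12, adjusted p = 0.008).

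**Figure D3:**
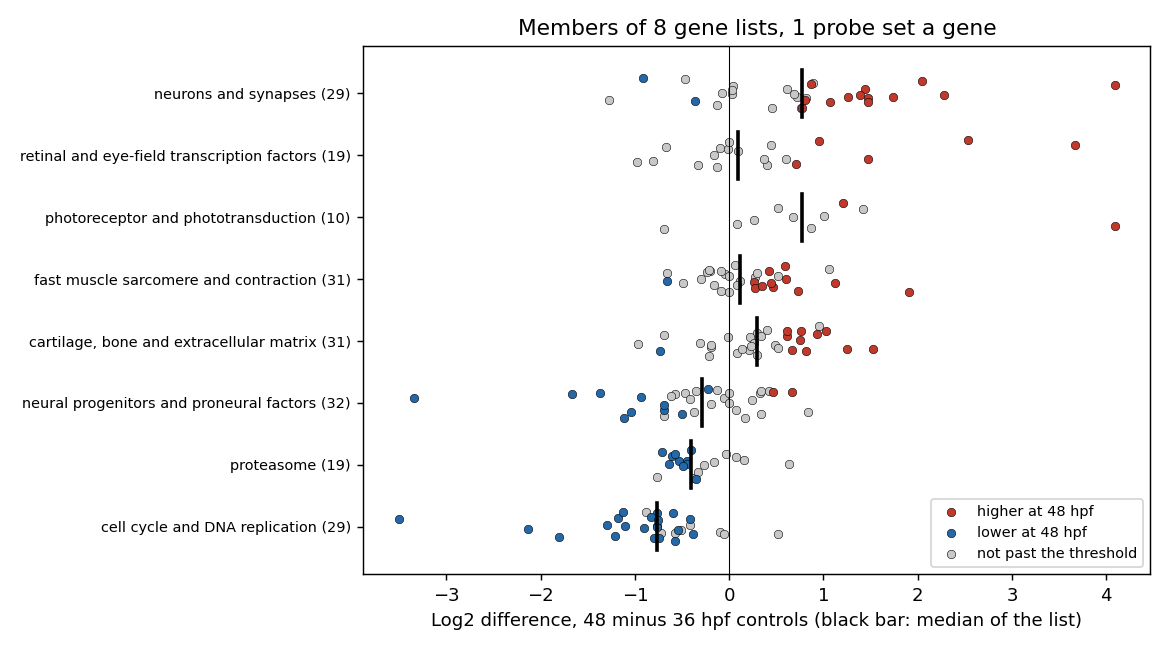
Log2 difference at 48 against 36 hpf of each tested member of 8 gene lists, with 1 probe set for each gene, the number tested in brackets and the black bar at the median. Red is higher, blue lower and grey not past the threshold; cell cycle genes lie almost all to the left of 0 (median -0.77) and neuronal genes mostly to the right (median 0.77).

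Some skeletal muscle genes, already among the brightest transcripts, rose, mostly by small amounts. Of 31 tested genes of the fast muscle sarcomere and contraction, 11 rose and 1 fell, with a median of 0.12, and the share that rose compares with 8.93%. Leaving out array 1 at 36 hpf, 11 rose and none fell. This result depends on the scaling: with each array centred on its median 2 rose, with the values as deposited none did, and relative to the median of all probe sets 5 of the 12 called members then had the opposite sign. With the 6 control arrays fitted alone 3 rose.

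The tropomyosin gene tpma, whose product lies along the thin filament, had levels of 9.62, 9.74 and 9.56 at 48 hpf, against 9.05, 9.08 and 8.98 at 36 hpf, a 1.52-fold rise (0.60 ± 0.08, adjusted p = 0.00014). Of its other 2 probe sets, 1 had a difference of the opposite sign. The fast troponin T gene tnnt3b, with levels of 9.62, 9.78 and 9.68 at 48 hpf against 8.95, 9.02 and 9.32 at 36 hpf, rose 1.51-fold (0.59 ± 0.09, adjusted p = 0.00034). The fast myosin light chain gene mylpfa rose by 0.27 ± 0.07 (adjusted p = 0.010), and its difference relative to the median of all probe sets was -0.19 with centred arrays. The giant spring protein gene ttn.2 had levels of 6.42, 6.19 and 5.46 at 48 hpf against 2.66, 4.54 and 5.15 at 36 hpf. Its 3.75-fold rise (1.91 ± 0.48, adjusted p = 0.009) was 1.18 (adjusted p = 0.034) without array 1. The fast myosin heavy chain gene myhz1.1 rose 2.17-fold (1.12 ± 0.29, adjusted p = 0.011) with array 1 at 36 hpf, and by 0.56 (adjusted p = 0.010) without it.

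The single member that fell, the intermediate filament gene desma, was lost without array 1 at 36 hpf or array 2 at 48 hpf (-0.66 ± 0.18, adjusted p = 0.016, largest 0.072), and was -0.42 without the first. The slow myosin gene smyhc1 had levels of 7.79, 7.75 and 7.80 at 48 hpf against 6.72, 7.54 and 7.04 at 36 hpf (0.68 ± 0.19, adjusted p = 0.015), and the call was lost without array 1 at 36 hpf (0.49, adjusted p = 0.066). Of 11 tested myogenic regulatory factor genes, 2 rose and 1 fell, against 8.93% and 14.1% of all named genes. The median of this list was 0.29, and -0.10 without array 1 at 36 hpf. Among those that rose was mef2d (1.29, adjusted p = 0.004). Of 15 tested genes of the heart, 3 rose and 1 fell, against 8.93% and 14.1% of all named genes. The share that rose thus lay above the background and the share that fell below it. Without array 1 at 36 hpf 3 rose and 1 fell, against 7.37% and 10.9%, but without array 2 at 48 hpf only 1 rose. The median of the heart list was 0.09, and -0.08 without array 1 at 36 hpf, so the list as a whole did not shift clearly. The cardiac myosin light chain gene myl7 did not pass, at 5.13, 5.09 and 5.26 at 48 hpf against 4.77, 5.16 and 5.27 at 36 hpf (adjusted p = 0.697). The level of tnnt2a, the target of the study's morpholino, was 3.24, 3.03 and 3.43 at 48 hpf against 0.69, 2.62 and 2.77 at 36 hpf (1.21 ± 0.47, adjusted p = 0.074), and 0.54 (adjusted p = 0.370) without array 1.

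Some genes of cartilage and extracellular matrix rose. Of 31 tested members, 10 rose and 1 fell, with a median of 0.30, against 8.93% higher among all named genes. Leaving out array 1 at 36 hpf, 10 rose and none fell, against 7.37% higher among all named genes. With arrays centred on their medians 4 rose, and with the values as deposited none did, while all 11 called members kept their sign relative to the median of all probe sets. The chondromodulin gene cnmd, a secreted protein of cartilage, had levels of 6.47, 6.09 and 6.06 at 48 hpf, against 4.90, 4.37 and 4.75 at 36 hpf. It rose 2.90-fold (1.53 ± 0.18, adjusted p = 3.2e-05). The versican gene vcanb, a matrix proteoglycan, rose 2.38-fold (1.25 ± 0.27, adjusted p = 0.004), and sox6, a factor that works with Sox9 in cartilage, rose 2.05-fold (1.03 ± 0.22, adjusted p = 0.003).

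Collagens of cartilage were among the members. The gene of the type IX collagen chain col9a2 had levels of 7.21, 7.35 and 7.10 at 48 hpf, against 6.07, 6.39 and 6.78 at 36 hpf, a 1.75-fold rise (0.81 ± 0.16, adjusted p = 0.002). The gene of p4ha1b, an enzyme that hydroxylates collagen so that its helix is stable, rose 1.90-fold (0.93 ± 0.23, adjusted p = 0.008). The type II collagen gene col2a1a was much brighter, at 8.27, 8.35 and 8.27 at 48 hpf against 6.74, 7.66 and 8.22 at 36 hpf. Its rise (0.76 ± 0.25, adjusted p = 0.037) was lost without array 1 at 36 hpf or without any one array at 48 hpf (largest adjusted p = 0.191), and was 0.36 without the first. The member that fell, the limb and jaw homeobox gene dlx5a, was likewise lost without any one of those 4 arrays (-0.73 ± 0.24, adjusted p = 0.037, largest 0.174), with -0.46 when array 1 at 36 hpf was absent.

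Of 19 tested erythroid genes 3 fell and 1 rose (4 and none without array 1 at 36 hpf), near the background, with a median of -0.37. A pair of those that fell encode enzymes of haem synthesis. Haem is the iron-bearing ring of haemoglobin, and red cells make it while they mature. Transcripts of urod, uroporphyrinogen decarboxylase, stood at 3.57, 3.1 and 3.25 at 48 hpf, against 5.04, 5.09 and 5.01 at 36 hpf. The arrays at 36 hpf were almost equal, and the fall was 3.34-fold (-1.74 ± 0.20, adjusted p = 3e-05). The gene of the earlier enzyme hmbsa, hydroxymethylbilane synthase, fell 2.58-fold (-1.37 ± 0.28, adjusted p = 0.002). The first enzyme of the pathway in red cells is encoded by alas2, which did not pass, at 5.59 ± 0.33 at 48 hpf and 5.5 ± 0.08 at 36 hpf (SD, n = 3 each, limma adjusted p = 0.712). The third that fell was gata1a, the master factor of red cells (-1.11 ± 0.39, adjusted p = 0.047), a call lost without array 1 at 36 hpf or any one array at 48 hpf (largest adjusted p = 0.247), and -0.61 without the first.

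Some genes of the endoderm and the yolk fell, in lists to be read against 14.1% lower among all named genes. Of 14 tested genes of the yolk syncytial layer and lipid transport, 5 fell and none rose, with a median of -0.30. Of 12 tested gut genes, 4 fell and 1 rose, with a median of -0.48. In the absence of array 1 at 36 hpf these were 4 and 0, and 3 and 1, and 3 yolk genes fell without array 3 at 36 hpf or array 2 at 48 hpf, and 2 without array 3 at 48 hpf. Without array 2 at 48 hpf 2 gut genes fell and none rose. With the values as deposited or with the 6 control arrays fitted alone, no gut gene passed and 1 yolk gene fell. With arrays centred on their medians, 3 of each list fell. The endoderm and heart factor gene gata5, in both lists, had levels of 1.27, 2.09 and 0.65 at 48 hpf, against 4.43, 2.28 and 3.76 at 36 hpf (-2.15 ± 0.44, adjusted p = 0.003), a fall whose size is not fixed at so dim a level. The endoderm factor gene foxa1 fell by 1.78 ± 0.45 (adjusted p = 0.010), also to a dim level, and foxa3 by 1.06 ± 0.28 (adjusted p = 0.012), calls lost without array 2 at 48 hpf (adjusted p = 0.053) and without array 3 at 48 hpf (adjusted p = 0.059). The fatty acid binding protein gene fabp3 fell 1.37-fold (-0.46 ± 0.12, adjusted p = 0.010), with 1 of its 2 probe sets of the opposite sign. The liver and yolk gene afp4, an antifreeze-type protein, fell 1.55-fold (-0.63 ± 0.11, adjusted p = 0.00058). Of 28 tested genes of liver and plasma proteins, 3 fell and none rose, close to the background.

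Several factors that pattern the embryo changed. Of 50 tested genes of the hedgehog, Wnt, FGF and BMP pathways, 3 rose and 7 fell, with a median of -0.02. The list as a whole thus stayed at the background. Without array 1 at 36 hpf 5 fell, and without array 2 at 48 hpf 4 did. The FGF target gene etv4 had levels of 3.04, 3.59 and 3.46 at 48 hpf, against 5.64, 4.81 and 4.18 at 36 hpf (-1.51 ± 0.28, adjusted p = 0.001), a 2.85-fold fall. The Wnt receptor gene fzd7a fell 1.86-fold (-0.89 ± 0.14, adjusted p = 0.00031). The Wnt pathway's nuclear factors went opposite ways: lef1, which activates targets, rose 2.15-fold (1.1 ± 0.17, adjusted p = 0.00034), and tcf7l1a, which represses them, fell by 3.00 ± 0.72 (adjusted p = 0.007) to a dim level. The inhibitor of differentiation gene id4 rose 1.96-fold (0.97 ± 0.17, adjusted p = 0.00088).

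Of the 5 tested Meis homeobox genes, partners of Hox proteins, meis2a, meis1b and meis2b rose. The meis2a gene had levels of 6.42, 6.68 and 6.63 at 48 hpf, against 5.57, 5.36 and 5.31 at 36 hpf, a 2.23-fold rise with the second smallest p of a named gene that rose (1.16 ± 0.12, adjusted p = 1.5e-05). The gene meis1b rose 1.88-fold (0.91 ± 0.16, adjusted p = 0.00081) and meis2b 1.94-fold (0.95 ± 0.17, adjusted p = 0.00079). The others, looked up after values were seen, did not pass, with -0.29 (adjusted p = 0.168) for meis3 and 0.11 (adjusted p = 0.740) for the brighter probe set of meis1a. Of 14 tested genes of retinoid signalling, which hold meis1b, meis2b and meis3, 3 rose and 1 fell. The median of the list was 0.0, and 8.93% of all named genes rose. With arrays centred on their medians 1 rose, and with the values as deposited none did. The retinoic acid degrading enzyme gene cyp26a1 fell 1.85-fold (-0.89 ± 0.20, adjusted p = 0.005). Of 39 tested Hox genes 2 rose and 4 fell (1 and 3 without array 1 at 36 hpf), near the background. Among them, hoxb5a was higher by 0.90 ± 0.17 (adjusted p = 0.002) and hoxa2b lower by 1.15 ± 0.24 (adjusted p = 0.003).

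In the neural crest list, the crest marker crestin had levels of -2.69, -4.57 and -0.34 at 48 hpf, against 2.06, 1.52 and 3.56 at 36 hpf. All arrays at 48 hpf lay under the level tested, and the fall (-4.92 ± 0.95, adjusted p = 0.002) has no fixed size. The crest and epidermis factor gene tfap2a rose 1.90-fold (0.93 ± 0.16, adjusted p = 0.00074) on its brighter probe set, while the other had a difference of -0.26 (adjusted p = 0.267). The gene of the chemokine receptor cxcr4a, which guides migrating cells and vessels, fell by 2.71 ± 0.42 (adjusted p = 0.00034) to a level too dim to fix the size. The vascular receptor gene kdrl did not pass, at 3.63, 3.73 and 3.94 at 48 hpf against 3.09, 4.01 and 4.17 at 36 hpf (0.01 ± 0.24, adjusted p = 0.976). Of 15 tested endothelial genes 2 fell and none rose, against 14.1% lower among all named genes.

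Further organ genes rose singly. The kidney and neuron homeobox gene lhx1a had levels of 4.83, 5.0 and 4.91 at 48 hpf, against 2.82, 3.48 and 3.59 at 36 hpf, a 3.06-fold rise (1.62 ± 0.20, adjusted p = 4.9e-05). The inner ear homeobox gene hmx3a rose 2.56-fold (1.35 ± 0.22, adjusted p = 0.00044). The basal keratin gene krt5 rose 1.56-fold (0.64 ± 0.15, adjusted p = 0.006). Its epidermis list had 5 higher and 3 lower of 26, against 8.93% and 14.1% of all named genes. Without array 1 at 36 hpf 3 were higher and 2 lower, and without array 1 or array 3 at 48 hpf 2 were higher. The lysozyme gene lyz, of granulocytes and macrophages, rose 1.45-fold (0.53 ± 0.12, adjusted p = 0.005), while in the myeloid list of 18 the other 3 that passed fell, of which 1 passed without array 1 at 36 hpf.

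Metabolic and stress genes changed one by one. The steroid receptor cochaperone gene fkbp5, a target of glucocorticoids, had levels of 5.86, 5.48 and 6.09 at 48 hpf against 4.24, 4.55 and 2.73 at 36 hpf, a 3.92-fold rise (1.97 ± 0.38, adjusted p = 0.002). Its level at 60 hpf was 3.98 ± 0.22 (SD, n = 3). The oxidative stress factor gene nfe2l2a rose 3.63-fold (1.86 ± 0.39, adjusted p = 0.003), and by 1.45 (adjusted p = 0.012) without array 1 at 36 hpf. The catalase gene cat rose 2.07-fold (1.05 ± 0.23, adjusted p = 0.003), and the lactate dehydrogenase gene ldha 2.5-fold (1.32 ± 0.25, adjusted p = 0.001). The amino acid transporter gene slc3a2b rose 2.25-fold (1.17 ± 0.19, adjusted p = 0.00038). The purine synthesis gene gart fell 3.37-fold (-1.75 ± 0.29, adjusted p = 0.00057). Of 12 tested genes of the circadian clock 3 rose (2 without array 1 at 36 hpf) and none fell. The median of the list was 0.43, and 8.93% of all named genes rose. Among the 3 were the repressor genes ciarta (0.96 ± 0.21, adjusted p = 0.004) and nfil3-5 (0.92 ± 0.20, adjusted p = 0.004). Of the 2 probe sets for nfil3-5, 1 was of the opposite sign.

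**Figure D4:**
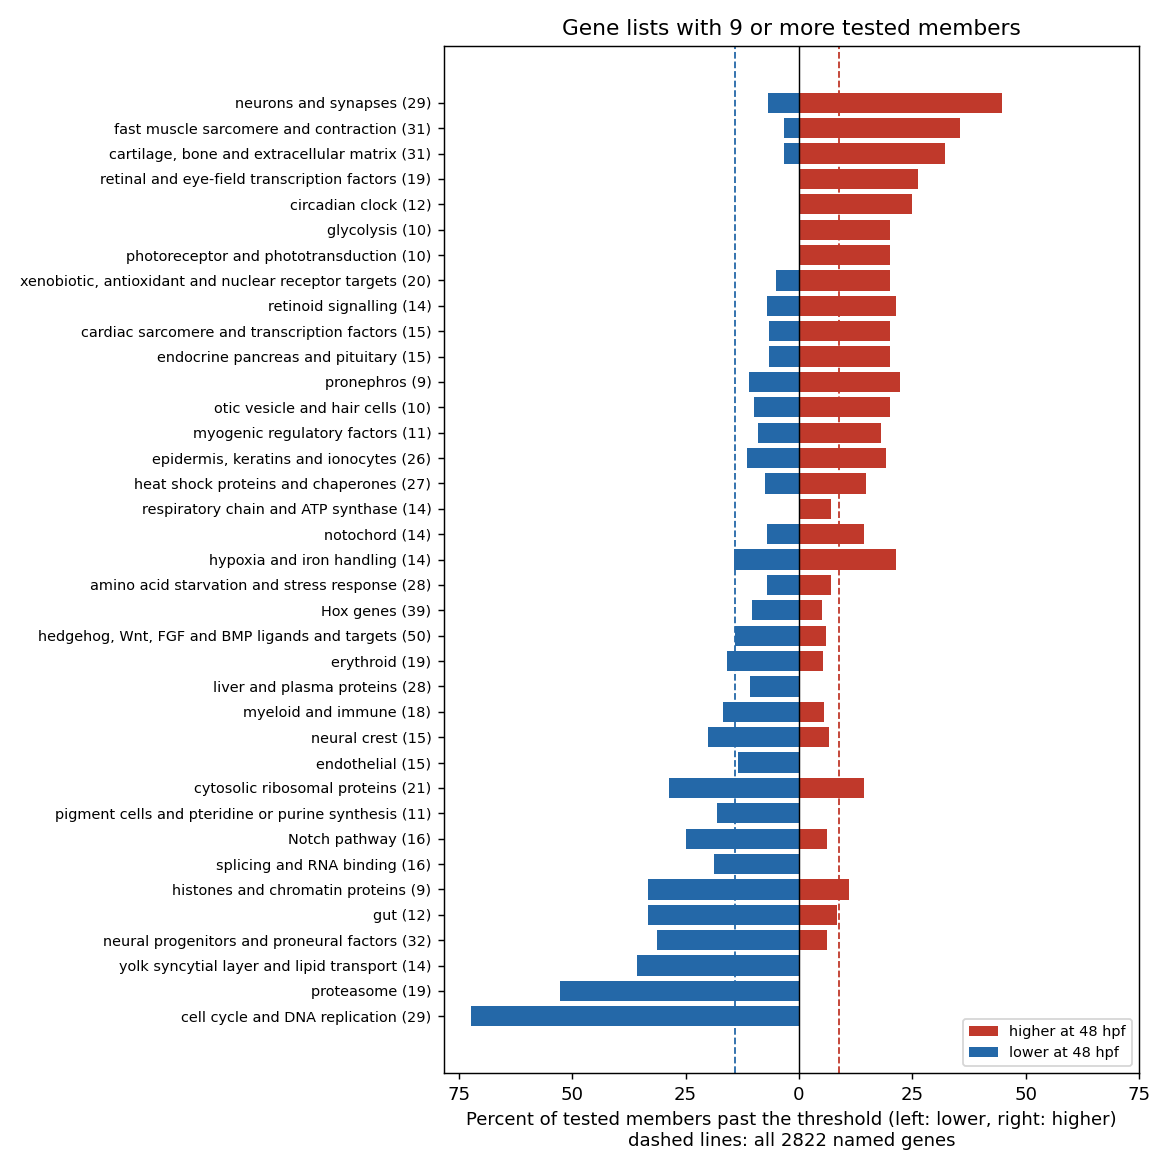
Percent of tested members of each gene list past the threshold at 48 against 36 hpf, higher to the right in red and lower to the left in blue, with the number tested in brackets, for lists with 9 or more members. Dashed lines give the background of all 2822 named genes, 8.93% higher and 14.1% lower; the neuronal list has the longest bar to the right, with 13 of 29, and the cell cycle list the longest to the left, with 21 of 29.

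The lists that held no called member were sterol synthesis, exocrine pancreas and germ cell and maternal transcripts, with 3, 3 and 8 tested genes. Single genes in lists near the background included cox6b1, a subunit of cytochrome c oxidase and the 1 of 14 tested respiratory chain genes that passed (1.18 ± 0.29, adjusted p = 0.008). They also included the chaperone gene hspa5 of the endoplasmic reticulum (0.72 ± 0.18, adjusted p = 0.008). Among 21 cytosolic ribosomal protein genes, 3 were higher (14.3%) and 6 lower (28.6%) with a median of -0.17. Both shares lay above the 8.93% and 14.1% of all named genes. This list, taken by name, also holds the kinase genes rps6ka1 and rps6ka3a, 1 of each direction. Without array 1 at 36 hpf 4 of the list fell and 2 rose. Without array 1 at 48 hpf 3 fell, and without array 2 at 48 hpf 2 did.

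Several of the largest falls were of genes whose level at 60 hpf lay near that at 36 hpf. The ribosome assembly gene noc4l, a nucleolar protein, had levels of 1.25, 0.65 and 0.34 at 48 hpf, against 3.90, 3.54 and 3.70 at 36 hpf. The fall (-2.97 ± 0.29), to a level too dim to fix its size, had the smallest adjusted p of the named genes that fell (4.9e-06). Its level was 3.50 ± 0.17 at 60 hpf (SD, n = 3). The gene wbp2nl had levels of 0.22, 0.59 and 1.92 at 48 hpf, against 5.34, 3.24 and 4.2 at 36 hpf (-3.35 ± 0.43, adjusted p = 6e-05), and 5.17 ± 0.40 at 60 hpf. The mitochondrial ribosome assembly gene malsu1 had levels of 1.24, 0.52 and 1.54 at 48 hpf, against 4.95, 3.23 and 4.40 at 36 hpf (-3.09 ± 0.39, adjusted p = 5.6e-05), and 4.67 ± 0.46 at 60 hpf. The arrays at 48 hpf were thus low against both other times for these 3 genes.

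Other large falls ended at levels too dim to fix a size. The BMP receptor gene bmpr1aa had levels of -3.08, -1.98 and -2.22 at 48 hpf, against 1.96, 2.65 and 2.93 at 36 hpf (-4.94 ± 0.71, adjusted p = 0.00018). The gene gtsf1, a factor of the germline piRNA pathway, fell by 4.37 ± 0.51 (adjusted p = 3e-05), and tcimb, with the largest fall among named genes whose groups did not overlap, by 5.34 ± 0.84 (adjusted p = 0.00037). The p53-binding protein gene ppp1r13ba fell by 3.24 ± 0.35 (adjusted p = 1.7e-05). All 4 fell in the same direction without array 1 at 36 hpf, with adjusted p from 6.5e-05 to 0.002.

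The same interval in morphants, whose 6 arrays are others than those of the controls, gave a second reading. In morphants, 1824 probe sets (15.7%) were past the threshold at 48 against 36 hpf, 929 higher and 895 lower. Of the 2625 probe sets called in controls, 2529 (96.3%) had the same sign in morphants, against 75.6% of all probe sets tested, and 1126 were past the threshold there with that sign. The arrays were normalised together and share the fitted spread, and any handling by time could be common to both kinds of embryo. Whether same-numbered control and morphant arrays of one time deviate together was not tested. All 21 cell cycle genes, all 10 proteasome genes, all 15 called neuronal genes and all 12 called progenitor genes had the same sign in morphants. So did the 12 fast muscle and 11 matrix genes, a share to be read against 96.3% of all called probe sets. Of the 5 retinal factors 4 did, the exception being pax6b (-0.04 in morphants, adjusted p = 0.949). The same sign was found for 4 of 5 called genes of the xenobiotic, antioxidant and nuclear receptor list. It was found for 3 of 4 in the myeloid and immune list and 2 of 3 in the circadian clock list. For endocrine pancreas and pituitary, and for amino acid starvation and stress response, it was 2 of 4 each. Slow muscle had 1 of 2.

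The values of single genes can be set side by side. The difference for vsx1 was 2.23 in morphants (adjusted p = 7.6e-07) and 2.53 in controls, and that for snap25b was 1.82 (adjusted p = 1.6e-06) and 1.39. For pcna it was -0.70 in morphants (adjusted p = 0.00068) and -0.77 in controls, and for ascl1b it was -1.14 (adjusted p = 0.002) and -1.37. The muscle gene ttn.2 had a difference of 0.18 in morphants (adjusted p = 0.840) and 1.91 in controls, and the test of that difference gave an unadjusted p of 0.020 and an adjusted p of 0.724. For crx it was 7.69 in morphants and 4.09 in controls, and the limma test between them gave an unadjusted p of 0.003 and an adjusted p of 0.550. The morphant arrays at 36 hpf were dim for crx (-5.95, -2.75 and -1.09), so neither 7.69 nor its excess over controls has a fixed size. At 48 hpf the mean level of crx was 4.43 in morphants and 5.51 in controls. For orc5 the difference was -1.07 in morphants and -3.50 in controls, and the limma test between them gave an adjusted p of 0.230. Over all probe sets, 1 (0.0086%) was past the threshold for a change that differed between morphants and controls, none with the values as deposited, and 766 (6.59%) had an unadjusted p under 0.05.

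**Figure D5:**
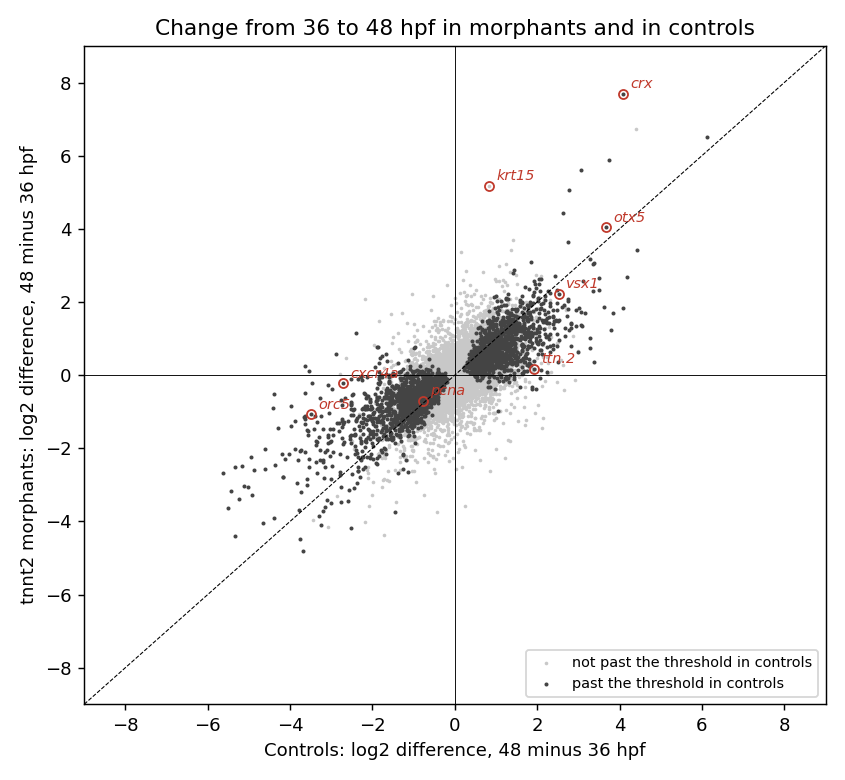
Log2 difference at 48 against 36 hpf in tnnt2 morphants (vertical axis) and in controls (horizontal axis) for 11626 probe sets, with dark points past the threshold in controls, the dashed line marking equal differences and circles marking named genes. Of the 2625 dark points 2529 lie in the quadrants of equal sign; krt15, above the line, is the single gene past the threshold for the difference.

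The authors combined the 3 arrays of a group into a single value. In the authors' deposited table of these combined values, the median difference of 48 over 36 hpf was 0.90, and 2568 of 2610 called probe sets (98.4%) had the same sign relative to that median. The authors' deposited table gave 2.66 for vsx1, 4.22 for crx, -1.17 for pcna and -3.32 for orc5, each relative to its median. These come from the same arrays and are no second measurement.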

How the data were processed

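Per the deposited readme, the authors estimated expression from the scanned Affymetrix arrays with the puma package (mmgMOS), and per the labels the cRNA was made from 6 ug of total RNA. The deposited series values are log expression values of 15617 probe sets, and a standard error on that scale was deposited for each. The files do not state the base, which was taken as log2. Each group's combined value (pumaComb) is the authors'.

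From the deposited log2 values, 115 manufacturer's control probe sets were dropped and the other 15502 quantile normalised over 18 arrays, since array medians spanned 2.68 (limit 0.1). The dimmest, with means below the 25th percentile (0.62), were left out. A mean was fitted for each of 6 groups with limma 3.58.1 (R 4.3.3; 12 residual and 6.24 prior degrees of freedom, intensity trend), without a replicate term, because same-numbered arrays did not deviate together (correlations -0.009, 0.078 and 0.115). P-values were adjusted by Benjamini and Hochberg. The fit was tested on simulated data with the mean and within-group spread of each probe set. It called 42 of 100 changes of 1 and 75 of 100 changes of 2 on the log2 scale, with 6 false calls. These were the only changes among 11626 simulated probe sets, whereas 2625 were called in the data. A probe set had the same spread on all simulated arrays, with none wider for array 1 at 36 hpf. The rates of true and false calls therefore do not carry over to these data. A gene that did not pass may still have changed. Precision is limited by the number of arrays.

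Names came from descriptions in the deposited tables and a RefSeq table (assembly GRCz12tu, names only). They gave 4162 probe sets 1 name, 2 several and 11338 none. A fold is printed where both group means reach 0.62 and neither lies below that of zp3b, an egg-coat gene, at that time. Genes are named by rule: the 20 largest differences with groups apart and the 5 smallest p in each direction, up to 6 called members of each list in each direction (2 where none was called), the 10 smallest p for a difference between morphants and controls, and 11 genes always shown, of which hbbe3, he1.1, apoa1b and col1a2 had no named probe set. The text describes only some of the genes that the rule names. The 43 lists with at least 3 tested genes hold 683. Members and lists were chosen with earlier results of these data known. Alternatives were other scalings, filters, weights, subsets of arrays and a replicate block.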

Additional observations from a re-analysis of the deposited data

Results flagged for a closer look

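The keratin gene krt15 differed between the kinds of embryo in its change from 36 to 48 hpf. Its difference at 48 against 36 hpf was 5.18 in morphants (limma adjusted p = 5.5e-07) and 0.83 in controls (limma adjusted p = 0.170). The change was thus larger in morphants by 4.35, and the limma test of that difference had an adjusted p of 0.012. The arrays of morphants at 36 hpf were dim (-1.24, -1.85 and -1.37), so the size is not fixed. The call was lost, and no probe set passed this test, with the values as deposited, with weights from standard errors, or without any one of control arrays 1 and 2 at 48 hpf, morphant array 2 at 36 hpf and morphant array 3 at 48 hpf. In controls the levels were 2.06, 2.15 and 2.35 at 48 hpf, against 2.55, 0.31 and 1.19 at 36 hpf, with array 1 at 36 hpf above the arrays at 48 hpf. Without that array the control difference was 1.43 (limma adjusted p = 0.011). Of the 26 tested genes of epidermis, keratins and ionocytes, 5 rose and 3 fell in controls.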

How the results depend on the processing

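Of the 194 called genes that the naming rule gave, 106 kept their call without any one of the 6 control arrays, and 33 kept direction and threshold under every setting other than the filters. Reversals, with values as deposited and with arrays centred on their medians alike and relative to the median of all probe sets, were tpi1b to -0.16, mylpfa to -0.19 and rps18 to -0.22. The count of called probe sets (2625, 1280 higher and 1345 lower) was 1657 with values as deposited, 77 of them lower. Centred arrays gave 759 higher and 2036 lower. With the 9 control arrays alone it was 1379 (650 and 729), and with the 6 arrays of the comparison alone 791 (391 and 400), where fewer arrays set the spread; 12 cell cycle and 6 progenitor genes were then lower, and 7 neuronal genes higher. Without one control array it ran from 1619 to 3174, with 770 to 1577 higher and 849 to 1597 lower, the lowest being without array 2 at 48 hpf. It was 1749 (811 higher) without array 1 at 48 hpf, and 837 were higher without array 3. Other filters, no trend, weights and the replicate block left it within 1.5 times. The array numbers did not pair the control arrays at 48 hpf with those at 36 hpf. Pairing of control with morphant arrays of one time was not tested. With the numbers as a block 2929 passed, while 3 of the 194 genes lost their call. The 1 probe set whose change differed between morphants and controls became 0 with values as deposited, the median filter or weights from standard errors, 2 with centred arrays or the replicate block, and 6 with array weights. Without one array it ran from 0 to 26, the highest without control array 2 at 36 hpf. The causes were not tested. Dim probe sets and 3 arrays a group limit what could be called.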

Other observations

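Descriptions in the deposited tables group probe sets with and without a gene name, so that some genes of the lists are counted here again. These groups of words were chosen after the values had been seen. Of 37 tested probe sets described as mitochondrial ribosomal proteins, 36 of them without a gene name, 17 were lower at 48 hpf and none higher, with a median log2 difference of -0.63, against 11.6% lower among all probe sets tested. Without control array 1 at 36 hpf, 12 were lower. Of 57 probe sets described as ribosomal proteins without that word (40 without a gene name), 16 were lower and 4 higher, with a median of -0.16, and 9 were lower without that array. Of 35 probe sets described as collagens (28 without a gene name), 11 were higher and none lower, with a median of 0.53. Among all probe sets tested 11.0% were higher. Without that array 6 collagen probe sets were higher and 1 lower, against 8.28% higher among all. Of 14 described with the word replication (12 without a gene name), 9 were lower and none higher (median -0.96), and 8 without that array. Of 48 described as polymerases (36 without a gene name), 18 were lower and 1 higher (median -0.52), and 16 were lower and none higher without that array. Of 12 described as crystallins, proteins of the lens (10 without a gene name), 5 were higher and 1 lower, against 11.0% and 11.6% of all probe sets tested. Without that array 6 were higher and 1 lower, against 8.28% and 9.21%. The called members were thus mostly higher. The median of all 12 was -0.03, with differences between -2.22 and 1.63.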
